A study of Mus musculus with 19 samples.

Results

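The livers described here are the 5 wild-type (WT) livers of a series of 19, and they were chosen by the title of the sample alone, WT replicates 1 to 5. Each is the remnant liver of a male C57BL/6 mouse of 10 to 12 weeks that carries no engineered deletion, taken 2 h after surgical removal of 85% of the organ, with RNA described per mouse and 1 Affymetrix expression array per liver. The other 14 arrays are from mice that lack Ager, Myd88 or both and had the same operation, and none of their values is reported. Every value is a level after surgery, and none can be read as a change since surgery, because unresected livers were not analysed here.

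After partial removal of the liver, the remaining hepatocytes leave their resting state in stages. In the first, called priming, Kupffer cells (the resident macrophages of the liver) release TNF and IL-6, these signal through NF-kB and STAT3 in hepatocytes, and immediate early genes such as Fos, Jun, Egr1 and Myc are transcribed before any DNA is copied. Growth factors that act on the receptors Met and Egfr then carry the cells into division, while the remnant goes on supplying plasma proteins, glucose and bile. An extended resection leaves a small remnant, in which this programme can fail.

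Levels are the deposited log2 values, on which a step of 1 is a 2-fold difference. A probe set's value depends on how well its probes bind, so a rank orders signals and not amounts of mRNA. Each of 18193 genes was read by its brightest probe set, and 8044 genes (44.2%) had a mean over log2 4, the level used here for a signal over background. On single arrays the count of such genes ran from 7969 to 8129. A run of 5 values gives those of WT 1 to WT 5 in that order, errors are SDs over the 5 livers (n = 5), and the range of a gene is its highest minus its lowest liver. An SD over 5 livers is imprecise, its 95% interval running from 0.599 to 2.87 times its value, and the number of arrays limits what can be read. A single group is described, so no test between groups was made, and lists are described by counts beside the same counts over all genes.

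Control probe sets were read first. The 24 probe sets for the poly-A controls, bacterial transcripts added to the RNA before labelling, averaged 7.18, 7.46, 8.73, 9.17 and 9.45. All 24 were higher in WT 3, 4 and 5, with a mean of 9.12, than in WT 1 and 2, with a mean of 7.32. The 15 hybridization control probe sets over log2 4, for transcripts added after labelling, averaged 9.08, 8.79, 8.65, 8.79 and 9.02. Probe sets for 18S ribosomal RNA averaged 4.88, 4.16, 5.15, 5.31 and 3.48, lowest in WT 5. As a check of RNA integrity, the 3′ probe set minus the 5′ probe set ran from 1.23 to 1.52 for Actb and from 0.07 to 0.41 for Gapdh. For Pcx it was 7.14, 6.19, 4.84, 5.22 and 5.62, lower in each of WT 3, 4 and 5 than in WT 1 and 2, the split of the poly-A controls. The 5′ probe set of Pcx read 3.60, 4.42, 6.00, 5.28 and 5.15, near background in WT 1 and 2, so its difference is the least certain. The sample descriptions carry an S number, whose meaning they do not state, and it is 1, 2, 7, 8 and 18 for the 5 livers, so the split in the poly-A controls falls between low and high S numbers. Among genes over log2 4, 13.2% were higher in each of WT 3, 4 and 5 than in WT 1 and 2, and 13.8% were lower.

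**Figure D1:**
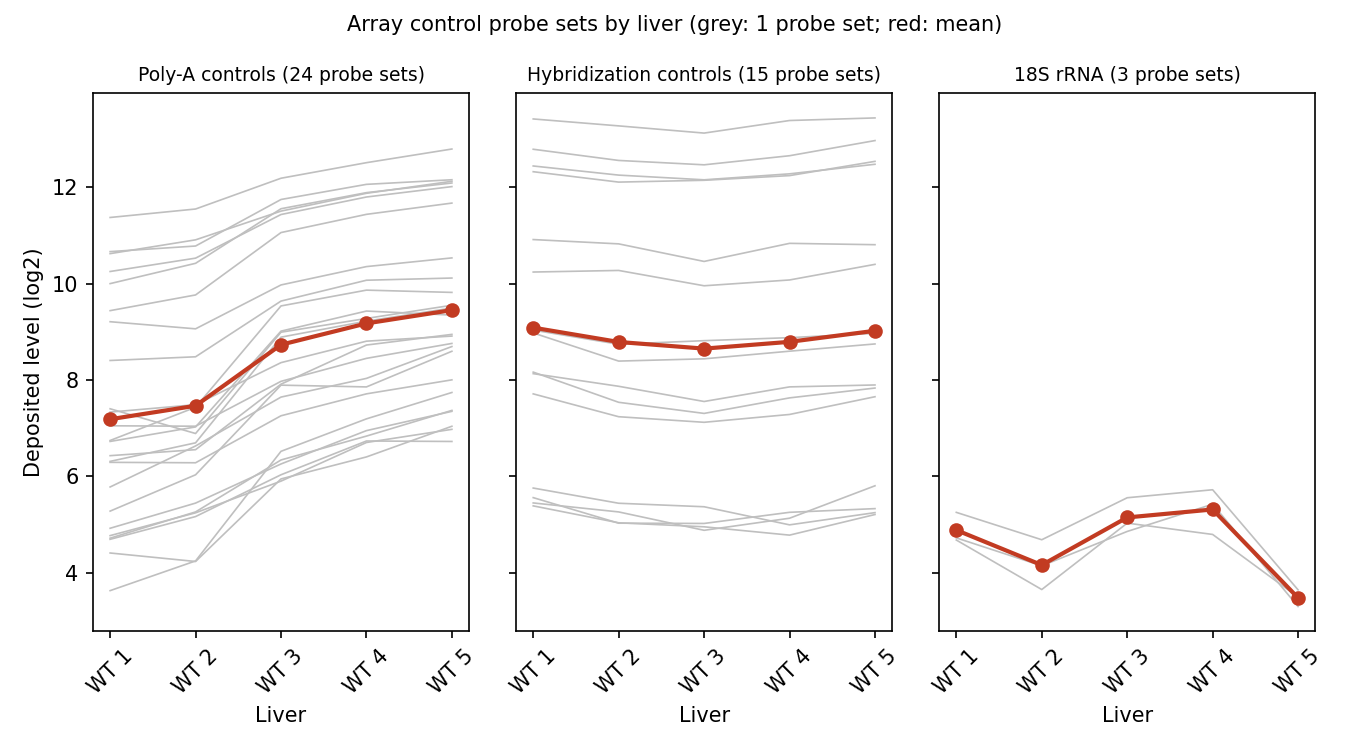
Deposited log2 level of the array control probe sets with a mean over log2 4, by liver. Each grey line is 1 probe set and the red line is their mean. All 24 poly-A control probe sets lie higher in WT 3, 4 and 5 than in WT 1 and 2, and the hybridization controls show no such step.

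Most genes differed little between the 5 livers. The median SD of the 8044 genes was 0.229 and their median range 0.565. A range of at least 1, a 2-fold difference between the highest and the lowest liver, was found for 1385 genes (17.2%), a range of at least 2 for 127 and of at least 3 for 21, while 3388 genes kept within 0.5. Spread depended on level. The share with a 2-fold range was 24.6% for genes with means over 4 up to 6, 27.8% from 6 to 8, 11.9% from 8 to 10, 5.53% from 10 to 12 and 1.47% above 12. The 17.2% set beside lists below is not matched to the level of their members. Bright probes approach saturation on such arrays, and the part of this in the small spread of bright genes was not tested. Without WT 5 the count of genes with a 2-fold range was 949, the lowest of the 5 counts with a liver left out. The range of a gene cannot grow when a liver is left out, so such counts, here and for lists, could hardly rise.

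Pairs of livers differed by a root mean square of 0.342 to 0.498 over these genes, so no array repeated another. The closest pair was WT 1 and WT 2, in which 127 genes differed by 1 or more, and the most distant was WT 3 and WT 2, in which 439 genes did. WT 3 was the highest liver for 26.1% of all genes over log2 4 and for 435 of the 1385 with a 2-fold range. WT 4 was the lowest liver for 24.9% of all genes over log2 4, and for 332 of the 1385. For 465 genes with a 2-fold range a second single-gene probe set also had a mean over log2 4, and it named the same highest liver in 52.5% and the same lowest liver in 51.0%. For the 42 of them with a range of at least 2 these shares were 73.8% and 64.3%, and for genes that ranged under 0.5 they were 36.4% and 34.8%.

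**Figure D2:**
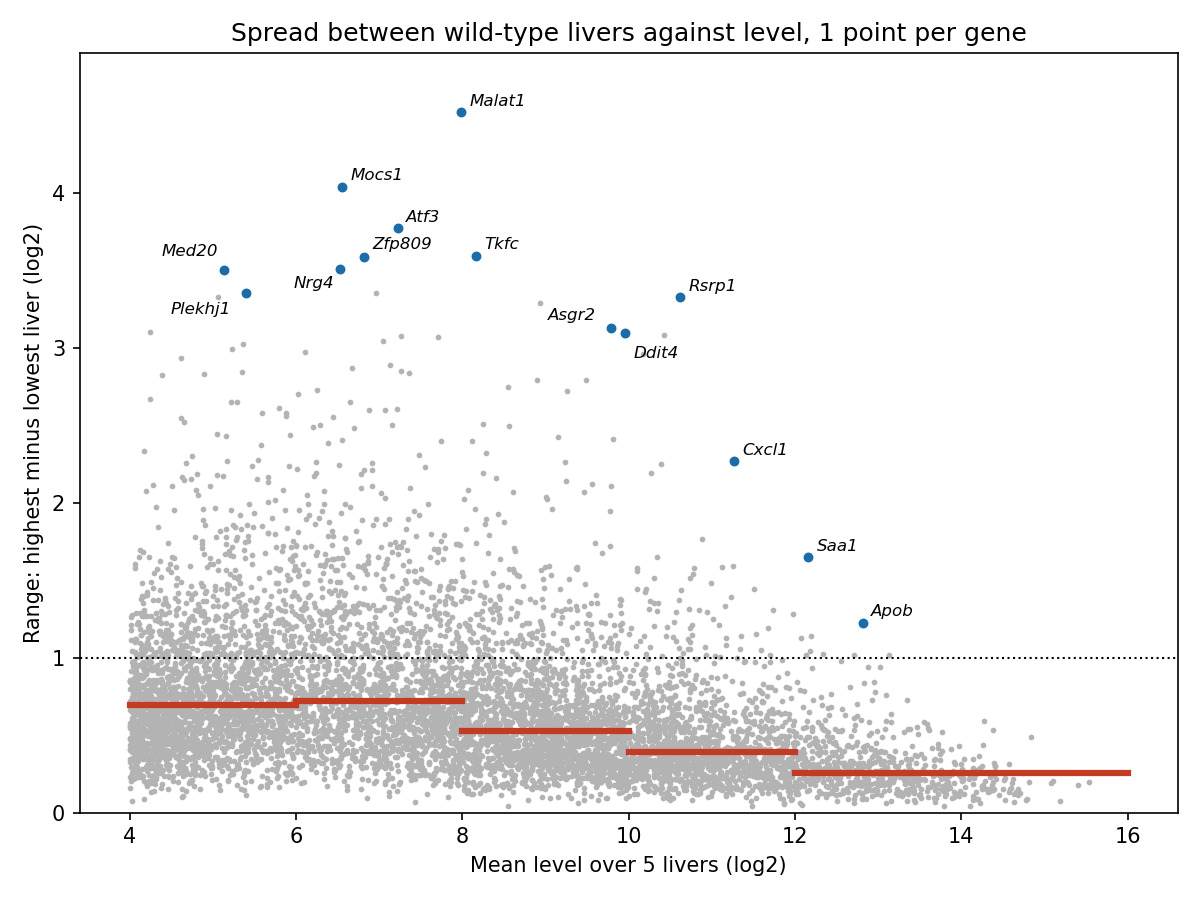
Range between the 5 livers (log2, highest minus lowest) against the mean level of each of the 8044 genes over log2 4. Red bars are median ranges by level, the dotted line marks a range of 1, and named points are genes described in the text, with Malat1 the highest at 4.52.

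Hepatocyte products filled the top of the ranking. Fabp1, which binds fatty acids in the hepatocyte cytosol, read 15.42, 15.53, 15.53, 15.58 and 15.62 and ranked 1 or 2 in each liver. Apoa1, the main protein of high-density lipoprotein, had a mean of 15.40 ± 0.07, Ttr, which carries thyroid hormone, 15.19 ± 0.04, and Alb, serum albumin, 15.11 ± 0.08. The 20 highest means lay between 14.59 and 15.54 with ranges of 0.07 to 0.49. They also included the chaperone Clu, the methionine cycle enzyme Bhmt, Gstp1, Serpina1b, Phyh, Apoa2, Fgb, Cyp2e1, Car3, Gpx1, Mgst1, Apoe, Fgg, the acute phase protein Orm1, the ribosomal gene Rps29 and the translation-associated gene Tpt1. Serpina1b stands for a family of near-identical genes, which its probes may not tell apart.

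Plasma proteins were the most even of the larger lists. All 23 measured members were over log2 4, with a median level of 14.39. Their median range was 0.22, beside 0.26 for all genes with means above 12. WT 1 was the highest liver for 18 of the 23 (19%, 1529, of the 8044 genes over log2 4 had WT 1 highest), by small amounts, and the mean deviation of the list in WT 1 was 0.09. The 1 member with a 2-fold range was Apob, the structural protein of very low-density lipoprotein, at 13.15, 12.86, 13.03, 13.11 and 11.92. Only WT 5 was low, and without it no member had a 2-fold range. A second Apob probe set was also lowest in WT 5, with a range of 1.29.

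Hepatocyte transcription factors were less even. Hnf4a, a master regulator of hepatocyte identity, read 11.89, 11.49, 11.89, 11.94 and 11.71, and Cebpa, which holds hepatocytes in a differentiated state, 10.24, 10.64, 10.49, 11.12 and 10.89. Neither reached a 2-fold range, but 6 of 14 measured factors did, against 17.2% of all genes over log2 4. The median level of the factors was 8.96, beside 14.39 for the plasma proteins. The share for all genes was 24.6% at means from 4 to 6, 11.9% from 8 to 10 and 1.47% above 12. The part of level in the contrast with plasma proteins was not tested. Foxa2 read 4.55, 4.16, 6.46, 4.29 and 4.32, high in WT 3 alone. Ppara, the fatty acid sensor that drives fat oxidation genes, read 10.42, 10.06, 10.07, 10.11 and 8.31, low in WT 5 alone, and its second probe set also had WT 5 lowest with a range of 1.43. Foxa1 (5.86 to 7.95), Onecut1 (4.54 to 6.67), Foxa3 (8.57 to 9.88) and Nr1i2 (7.61 to 8.67), the xenobiotic receptor PXR, completed the 6.

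The labels give the tissue as liver, while the extraction text in them speaks of glomeruli, the filters of the kidney. Hepatocyte markers were all over log2 4, 13 of 13, with a median of 14.34. Of 12 kidney and glomerulus markers, 11 had means of log2 4 or less, among them Nphs1 at 2.25, Wt1 at 2.26 and Umod at 2.63, and Podxl, which endothelium also makes, had 4.07 ± 0.17. Of 9 pancreatic markers only Cela1 was over log2 4, at 10.59 ± 0.06, while Cpa1 and Ctrb1 were at 2.53 and 2.21. No adipose or muscle marker (0 of 9) and no mesothelial marker (0 of 5) was over log2 4. As in male liver, Xist was at 2.32 ± 0.06 and the Y-linked Eif2s3y at 10.05 ± 0.15, and the male-biased Cyp2d9 (14.19) and Hsd3b5 (12.93) were bright while the female-biased Cyp2b9 (2.05) and Sult3a1 (2.18) were not over log2 4.

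Among non-hepatocyte lists, Kupffer cell and macrophage markers were present throughout and lowest in WT 3. All 17 were over log2 4, and WT 3 was the lowest liver for 16 of them (17.2% of all genes over log2 4 had WT 3 lowest). The mean deviation of the list from its own 5-liver mean was −0.07, 0.13, −0.53, 0.15 and 0.31. Clec4f, a lectin restricted to Kupffer cells, read 10.25, 10.39, 9.65, 10.47 and 10.30, and Adgre1, which encodes the macrophage marker F4/80, read 7.65, 8.04, 7.34, 8.39 and 8.73. The complement genes C1qa, C1qb and C1qc had ranges of 1.02, 0.96 and 1.09, each with WT 3 lowest. Marco, a scavenger receptor, read 4.54, 4.74, 3.93, 4.82 and 7.26, high in WT 5 alone. In bulk tissue, fewer cells of a type and less RNA per cell cannot be told apart. A 2-fold range was found for 6 of the 17, beside 17.2% of all genes over log2 4. It was found for 2 without WT 3 and for 3 without WT 5.

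Endothelial and stellate lists had median ranges of 0.46 and 0.63, against 0.90 for the Kupffer list. Of 16 endothelial markers, 14 were over log2 4. Lyve1, Stab2, Cdh5 and Kdr had a 2-fold range, 4 of the 14 (28.6%). This share was 17.2% over all genes over log2 4 and 27.8% at means from 6 to 8, where the median of the list lay. Of the 4 markers, 1 had a 2-fold range without WT 2 and 2 had one without WT 4. Lyve1, a hyaluronan receptor of sinusoidal endothelium, read 4.50, 4.93, 5.32, 6.49 and 5.94. Stellate cell and fibroblast markers were over log2 4 in 10 of 15, with Col1a1 at 2.63 and Col1a2 at 3.60 below it. Of the 10, 4 had a 2-fold range, beside 17.2% of all genes over log2 4, and 2 did without WT 1. The median of this list also lay from 6 to 8, where the share was 27.8%. Lrat, which makes the retinyl esters that quiescent stellate cells store, read 8.15, 7.22, 6.84, 6.05 and 6.35, highest in WT 1, and Reln read 8.95, 8.13, 9.58, 9.56 and 8.67.

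Few of the blood cell markers measured were over log2 4. The calprotectin genes S100a8 and S100a9, abundant in neutrophils, were the 2 of 11 neutrophil markers over log2 4. S100a8 read 10.95, 11.46, 10.25, 10.86 and 10.28 and S100a9 10.56, 10.97, 9.67, 10.33 and 9.53, both highest in WT 2, and without WT 2 only 1 of them had a 2-fold range. The granule genes Ngp, Ltf, Camp, Elane and Mpo lay between 2.25 and 2.75. No T or NK cell marker (0 of 12) was over log2 4, and of 8 B cell markers Cd74, Ighm and Igha were, at 9.33, 4.72 and 4.19. Alas2, the erythroid enzyme of haem synthesis, had 10.69 ± 0.23, while Slc4a1 and Hba-a1 were at 3.10 and 2.98. Only 4 of the 8 erythroid markers listed had a single-gene probe set, so these values do not give the blood content of the livers. Bile duct markers were over log2 4 in 1 of 7, Krt23 at 4.08, with Krt19 at 3.18 and Epcam at 3.27.

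Immediate early genes were over log2 4 in 28 of 33, and 16 of the 28 had a 2-fold range, beside 17.2% of all genes over log2 4. Fos, which pairs with Jun in the AP-1 factor, read 8.92, 9.82, 9.07, 9.58 and 10.19. Jun read 9.81, 9.97, 10.06, 9.93 and 11.23, with WT 5 above the other 4 livers. Egr1, a zinc finger factor induced by growth factor signals, read 9.81, 10.87, 9.31, 9.67 and 10.87, high in WT 2 and WT 5. Myc, which drives growth and ribosome production, read 8.72, 8.82, 8.21, 8.74 and 7.48, lowest in WT 5, the liver in which Jun was highest.

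The stress-induced members spread most. Atf3, a repressor induced by many stresses, read 7.03, 9.03, 5.26, 7.23 and 7.57, a 13.6-fold difference between WT 2 and WT 3. The growth arrest genes Gadd45b and Gadd45a read 7.36, 8.29, 6.30, 9.37 and 7.21, and 9.10, 9.60, 7.11, 8.32 and 8.67, with WT 3 lowest for each. WT 3 was the lowest liver for 12 of the 28 members, beside 17.2% of all genes over log2 4, and the mean deviation of the list was −0.14, 0.23, −0.39, 0.12 and 0.18. Not all members followed: Ccn2, a matrix protein and YAP target, read 8.23, 8.53, 8.92, 9.16 and 10.25, and Gadd45g, the highest member, 12.04, 11.51, 12.07, 12.25 and 11.92. Kupffer markers were also lowest in WT 3, and the part of cell makeup in these values was not tested.

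Some early genes stayed within a 2-fold range, though not all were even for their level. Dusp1, which turns off MAP kinases, had 11.06 ± 0.18, the survival gene Mcl1 11.51 ± 0.27, Junb 10.37 ± 0.26 and Klf6 7.98 ± 0.26. The median SD of all genes was 0.157 at means from 10 to 12 and 0.293 from 6 to 8. By contrast Btg2, an antiproliferative gene, read 11.81, 12.33, 10.89, 11.38 and 11.11, and Ier3, an early gene that limits NF-kB signalling, read 6.97, 6.85, 7.20, 7.85 and 6.34. The 5 members not over log2 4 were Fosb (2.50), Fosl1 (2.27), Egr2 (3.55), Egr3 (2.65) and Nr4a3 (3.72). Without WT 5 the number of members with a 2-fold range was 9.

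**Figure D3:**
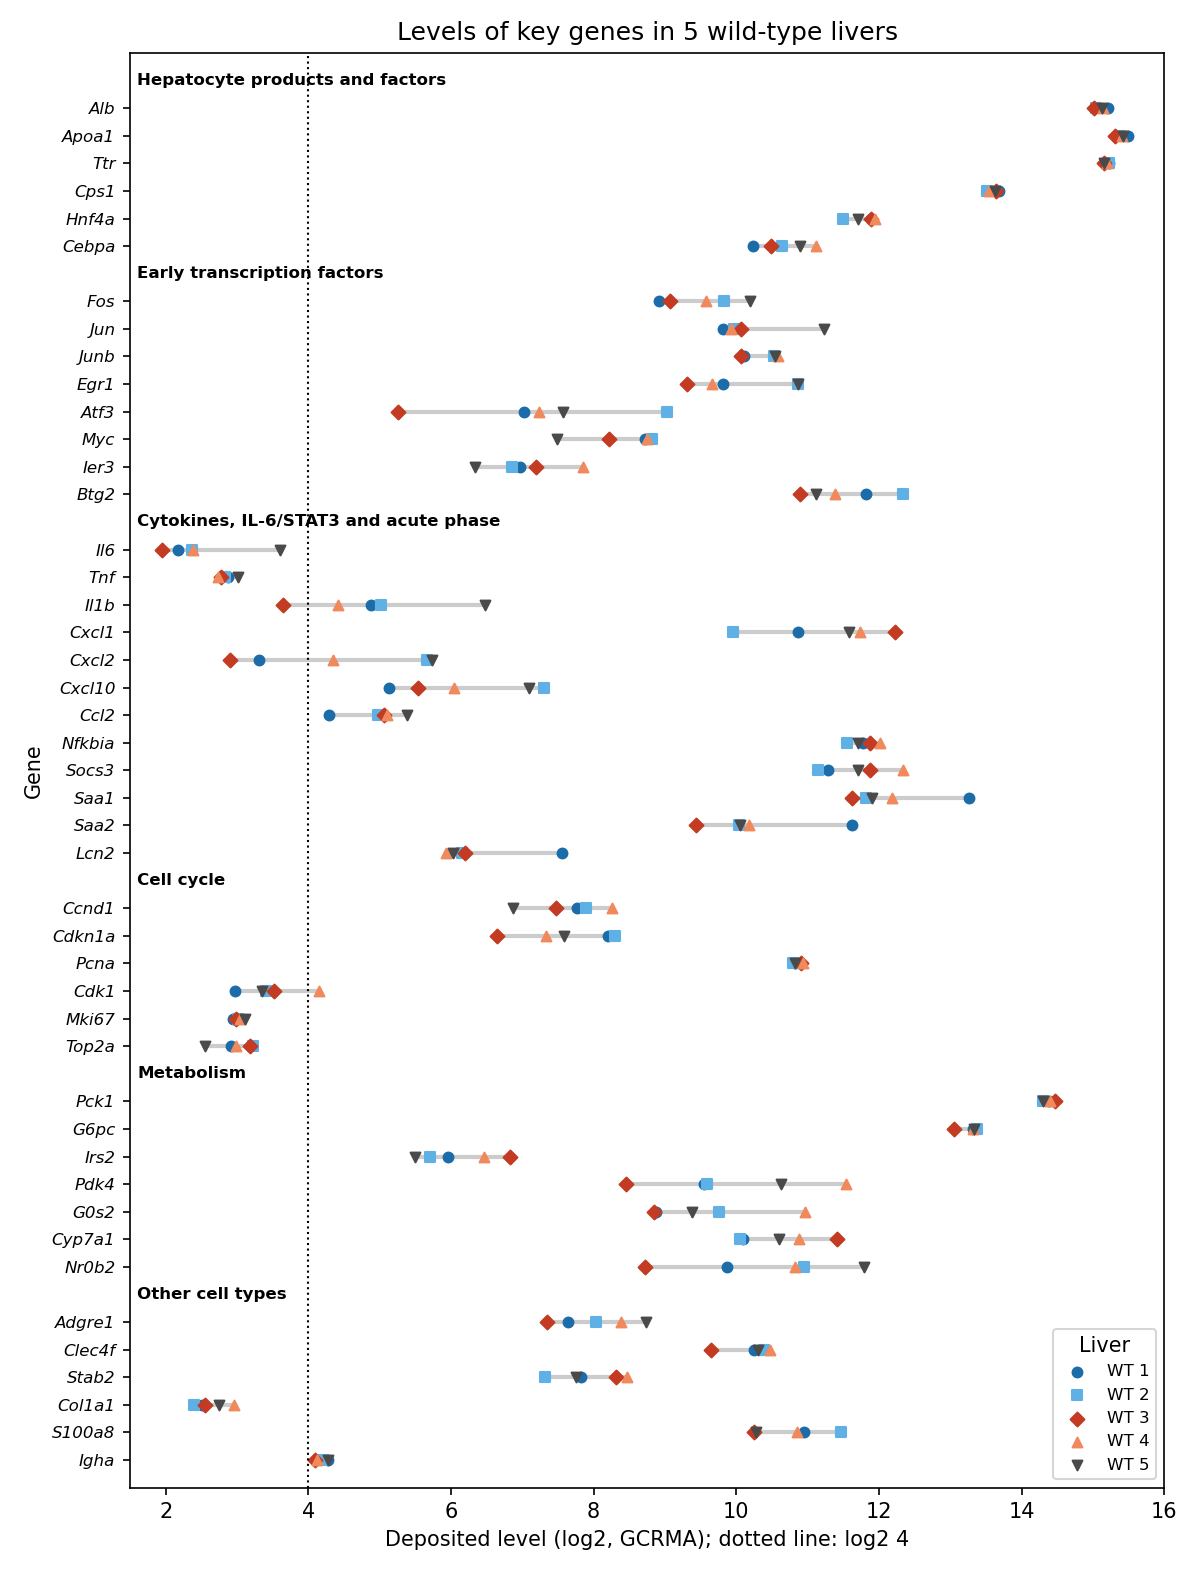
Deposited log2 level of key genes in each of the 5 livers, grouped by role, with grey bars from the lowest to the highest liver and a dotted line at log2 4. Alb, Apoa1 and Ttr lie in tight clusters near 15, Atf3 spreads from 5.26 to 9.03, and Tnf, Mki67 and Top2a stay left of the line in every liver.

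The cytokine genes Tnf and Il6 gave signals under log2 4, while NF-kB feedback genes and the chemokine Cxcl1 were bright. Tnf read 2.87, 2.83, 2.77, 2.74 and 3.02 and Il6 2.17, 2.37, 1.95, 2.38 and 3.60, so neither was over log2 4 in any liver, and Il6 was highest in WT 5. A level under log2 4 does not show that a transcript is absent. Nfkbia, the inhibitor that NF-kB itself induces, had 11.78 ± 0.18 and Nfkbiz 9.40 ± 0.27. In all, 12 of 20 measured members were over log2 4 and 7 of these (58.3%) had a 2-fold range, beside 17.2% of all genes over log2 4. Several lie near background, and 4 were left with a level of log2 5 and 3 with log2 6.

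Among chemokines, Cxcl1, which attracts neutrophils, read 10.86, 9.95, 12.22, 11.73 and 11.58, higher in WT 3, 4 and 5 than in WT 1 and 2. Its second probe set gave WT 3 as highest and WT 2 as lowest too, with a range of 3.03. Cxcl2 read 3.31, 5.66, 2.91, 4.35 and 5.73 and Cxcl10, an interferon-inducible chemokine, 5.13, 7.30, 5.54, 6.04 and 7.09, both high in WT 2 and WT 5 and low in WT 1 and WT 3. Thus 3 CXC chemokines did not share an order of livers. Ccl2, which attracts monocytes, read 4.30, 4.97, 5.07, 5.11 and 5.38. Il1b, an inflammatory cytokine of macrophages, read 4.88, 5.02, 3.65, 4.42 and 6.48, and WT 5 and WT 3 are also the highest and the lowest liver for Marco. Icam1 (4.86 to 6.52) and Vcam1 (7.85 to 9.39), adhesion molecules for leukocytes, had ranges of 1.66 and 1.54.

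The IL-6 and STAT3 pathway and its acute phase targets were over log2 4 in 27 of 30. Socs3, the feedback inhibitor that STAT3 induces, read 11.29, 11.15, 11.88, 12.34 and 11.71, higher in WT 3, 4 and 5. Stat3 itself read 10.58, 10.34, 10.24, 9.96 and 9.83, higher in WT 1 and 2. The signal transducer Il6st had 9.63 ± 0.18 and the receptor Il6ra 4.58 ± 0.22. Cebpb, a factor that acts on acute phase genes, had 13.04 ± 0.16 and Cebpd 11.03 ± 0.18.

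WT 1 was the highest liver for 13 of the 27, beside 19% of all genes over log2 4. Saa1 and Saa2, serum amyloid A genes of close sequence that probes may not separate, read 13.27, 11.82, 11.62, 12.18 and 11.91, and 11.63, 10.04, 9.44, 10.18 and 10.06. Lcn2, which binds bacterial iron carriers, read 7.55, 6.15, 6.19, 5.93 and 6.03, with WT 1 above the other 4 livers. Saa3 had another order, 7.76, 7.81, 7.05, 8.64 and 6.84, and so had Cd14, the lipopolysaccharide co-receptor, at 6.52, 7.07, 5.03, 7.39 and 7.51. Hamp, which encodes the iron hormone hepcidin, read 14.02, 14.55, 14.54, 14.26 and 14.52, lowest in WT 1. The metallothioneins Mt1 (13.97 ± 0.16) and Mt2 (13.62 ± 0.26) stayed within a 2-fold range. A 2-fold range was found for 9 members (33.3%), beside 17.2% of all genes over log2 4, and for 5 without WT 1.

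Interferon-stimulated genes were highest in WT 2. Of 16 members over log2 4, out of 19 measured, 13 had WT 2 as the highest liver, beside 15.6% of all genes over log2 4. The mean deviation of the list was −0.06, 0.69, −0.28, −0.19 and −0.16, with WT 2 alone above 0. A 2-fold range was found for 8 members, beside 17.2% of all genes over log2 4. It was found for 4 without WT 2 and for 2 with a level of log2 6. Many of these genes are bound by interferon-activated factors at the interferon-stimulated response element, and 4 promoters that hold its letters are shown for genes that were highest in WT 2. They are the 250 bases before the annotated start from RefSeq, build GRCm38.p6, 5′ to 3′ on the strand of the gene, with matches to the element, searched as GAAA, any 2 bases and GAAA or as the reverse complement of this, in capitals.
Ifit3: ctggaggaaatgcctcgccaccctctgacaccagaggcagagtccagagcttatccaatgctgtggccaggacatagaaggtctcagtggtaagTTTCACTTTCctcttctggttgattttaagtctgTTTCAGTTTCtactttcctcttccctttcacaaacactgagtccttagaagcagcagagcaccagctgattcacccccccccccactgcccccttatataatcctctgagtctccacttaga
Gbp3: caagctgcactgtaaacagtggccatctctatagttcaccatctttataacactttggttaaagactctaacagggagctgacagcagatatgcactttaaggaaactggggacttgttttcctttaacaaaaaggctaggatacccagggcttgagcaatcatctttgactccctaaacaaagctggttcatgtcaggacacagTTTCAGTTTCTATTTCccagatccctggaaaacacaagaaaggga
Oas1a: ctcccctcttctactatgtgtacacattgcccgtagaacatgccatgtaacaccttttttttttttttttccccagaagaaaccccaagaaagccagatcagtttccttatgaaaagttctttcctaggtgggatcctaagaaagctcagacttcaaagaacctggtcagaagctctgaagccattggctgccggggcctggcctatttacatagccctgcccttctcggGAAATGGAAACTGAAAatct
Rsad2: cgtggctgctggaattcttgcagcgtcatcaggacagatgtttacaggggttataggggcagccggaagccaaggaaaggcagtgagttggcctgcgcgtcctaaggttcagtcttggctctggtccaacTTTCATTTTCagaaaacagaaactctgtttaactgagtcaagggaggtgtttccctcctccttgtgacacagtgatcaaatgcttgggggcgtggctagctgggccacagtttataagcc

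These windows are chr19:34583279-34583528 (+) for Ifit3, chr3:142559794-142560043 (+) for 1 of the 2 annotated starts of Gbp3, chr5:120907526-120907775 (−) for Oas1a and chr12:26456453-26456702 (−) for Rsad2. The matches begin 156 and 122 bases before the start in Ifit3, 45 and 39 in Gbp3, 20 and 14 in Oas1a and 120 in Rsad2, and those of Gbp3 and of Oas1a overlap within the gene. Searched on both strands over the 250 bases before and 50 after each start, the letters were found in 9 of 14 members with a promoter in the table (64.3%), beside 3.99% of 27025 genes with one and 3.63% of the 6610 such genes over log2 4. A match to these letters is a description and no evidence of binding. All 9 members with a match were highest in WT 2, as were 3 of the 5 without.

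The values behind these promoters were as follows. Ifit3, which encodes an antiviral protein of the IFIT family, read 5.68, 7.39, 5.55, 4.84 and 5.93, and Gbp3, a guanylate-binding protein, read 5.81, 7.06, 5.55, 6.03 and 5.41. Oas1a, which senses double-stranded RNA, read 4.91, 5.87, 4.85, 5.15 and 4.89. Rsad2, the antiviral enzyme viperin, read 5.84, 6.01, 4.88, 4.29 and 5.12, and here WT 1 was close to WT 2. Usp18, which removes ISG15 from proteins and dampens the interferon receptor, read 7.17, 8.95, 6.95, 7.70 and 6.64, and Oasl1 read 4.42, 6.20, 4.35, 3.68 and 4.64. The members not highest in WT 2 were Iigp1 (12.71 ± 0.14), Psmb8 (9.05 ± 0.20) and Cxcl9 (7.43 ± 0.65), each highest in WT 4. WT 1 and WT 2 have adjoining S numbers, and both are low in the poly-A controls.

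**Figure D4:**
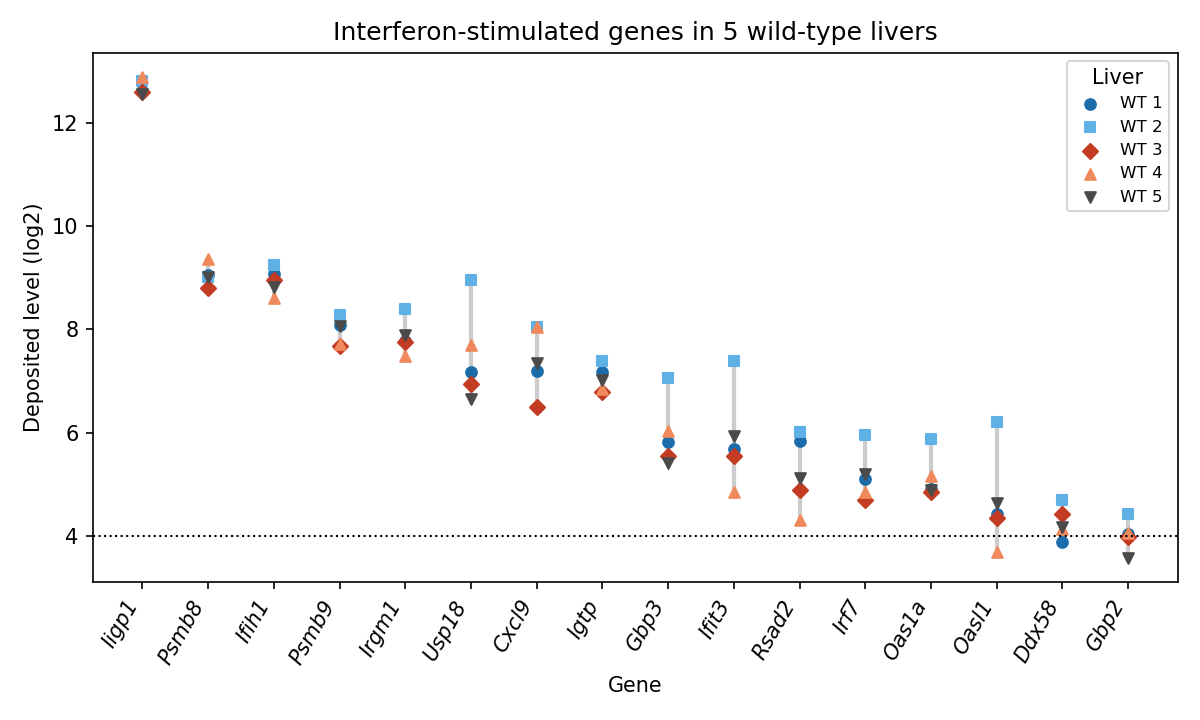
Deposited log2 level of the 16 interferon-stimulated genes over log2 4 in each liver, ordered by mean, with grey bars from the lowest to the highest liver. WT 2 is the highest liver for 13 of the 16.

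Ager and the Toll-like receptor genes, upstream of this signalling, gave weak signals. Ager, which encodes RAGE, a receptor for HMGB1 and S100 proteins, read 3.49, 3.28, 3.44, 3.21 and 2.90, under log2 4 in every liver. Myd88, the adaptor of most Toll-like receptors and of the IL-1 receptor, read 5.92, 5.24, 5.72, 5.63 and 5.26. The 9 Toll-like receptor genes measured had means of 2.05 to 3.35, with Tlr4, the lipopolysaccharide receptor, at 3.28 ± 0.16, while its partner Ly96 had 6.01 ± 0.24. The kinase Irak1 (9.68 ± 0.15), the kinase Irak2 (7.36 ± 0.20) and the inhibitor Tollip (8.57 ± 0.13) were even between livers. Of 23 measured members 9 were over log2 4, near the share of all genes, 44.2%. Of the 9, 3 had a 2-fold range, beside 17.2% of all genes over log2 4. At means from 6 to 8, where the median of the list lay, the share was 27.8%. The 3 were Tirap (4.35 to 5.99), S100a6 (4.25 to 5.84) and S100a10 (11.52 to 12.53). Without WT 2, 1 member had a 2-fold range.

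Some growth factor genes had means under log2 4 and others over it, and the receptors Met and Egfr were over it. Hgf, made by stellate cells, had 3.40 ± 0.18, Egf 2.20 ± 0.13 and Ereg 3.08 ± 0.39. The receptors Met and Egfr read 9.75, 9.42, 10.02, 9.85 and 9.38, and 10.89, 10.83, 11.52, 11.67 and 11.30. Hbegf, an Egfr ligand, read 4.42, 6.24, 3.14, 3.41 and 4.04 and was highest in WT 2, the liver in which Atf3 was highest too. Igfbp1, a growth factor binding protein known to be induced after hepatectomy, had 14.33 ± 0.05 and Errfi1, a feedback inhibitor of Egfr, 13.72 ± 0.16. Wnt2 and Rspo3, signals of the central vein endothelium, ranged by 1.08 and 1.04. In all 14 of 23 measured members were over log2 4, beside 44.2% of all genes. Of these, 4 (28.6%) had a 2-fold range, beside 17.2% of all genes over log2 4. There were 2 without WT 2 and likewise 2 without WT 3.

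Several genes of S phase and mitosis had means under log2 4. Of 27 cell cycle genes 16 had means of log2 4 or less, close to the share of all genes, 10149 of 18193. Among the 16 were Mki67 (3.02 ± 0.06), Top2a (2.97 ± 0.27), Cdk1 (3.48 ± 0.42), Foxm1 (2.94 ± 0.17) and Ccna2 (2.74 ± 0.27). Pcna, the replication clamp, was the highest at 10.86 ± 0.06. Ccnd1, the cyclin of the first commitment to division, read 7.77, 7.89, 7.48, 8.26 and 6.87, and its second probe set ranged by 1.09 with the same highest but another lowest liver. Cdkn1a, the p21 inhibitor, read 8.20, 8.30, 6.65, 7.33 and 7.58, lowest in WT 3, and Cdkn1b 6.92, 8.44, 8.00, 8.07 and 8.56, lowest in WT 1. With Rrm2 (6.30 to 7.40) they are the 4 of 11 members over log2 4 with a 2-fold range, beside 17.2% of all such genes. At means from 6 to 8, where the median of the list lay, the share was 27.8%. Without WT 5, 2 members had a 2-fold range. With the mean of all single-gene probe sets of a gene in place of the brightest there were 0. Ribosome biogenesis genes were over log2 4 in 19 of 20, and 9 of the 19 were higher in each of WT 3, 4 and 5 than in WT 1 and 2, beside 13.2% of all genes. Nop58, a nucleolar factor for RNA methylation, read 5.55, 5.73, 6.83, 6.52 and 6.94, and Nop56 6.80, 6.69, 7.37, 7.60 and 7.65. The poly-A controls split the livers in the same way, and their part in this was not tested.

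Cholesterol synthesis genes were lowest in WT 4. All 20 measured members were over log2 4, with a median of 11.41. WT 4 was the lowest liver for 11 (24.9% of all genes over log2 4 had WT 4 lowest) and WT 1 the highest for 14 (19% of all genes). The mean deviation of the list was 0.25, 0.02, 0.13, −0.36 and −0.04. Of the 20, 7 were lower in each of WT 3, 4 and 5 than in WT 1 and 2, beside 13.8% of all genes, and the poly-A controls split the livers at the same place. Hmgcs1, which makes the precursor of mevalonate, read 13.47, 13.49, 13.23, 12.47 and 12.97, Idi1 13.48, 13.15, 12.96, 12.54 and 12.97 and Mvd, a mevalonate pathway enzyme, 6.83, 6.56, 6.53, 5.30 and 6.89. Second probe sets for Hmgcs1 and Mvd were lowest in WT 4 too, with ranges of 1.16 and 1.28. Insig1, which holds SREBP in the endoplasmic reticulum, read 10.99, 10.95, 11.08, 10.95 and 11.84, and Srebf2 5.08 ± 0.20. A 2-fold range was found for 7 of the 20, beside 17.2% of all genes over log2 4. It was found for 4 without WT 1, for 3 without WT 4 and for 2 with the mean of all single-gene probe sets.

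Fatty acid synthesis genes had WT 3 as their highest liver in 10 of 20 (26.1% of all genes over log2 4 had WT 3 highest). Fasn, fatty acid synthase, read 9.88, 9.52, 10.89, 9.54 and 9.63, with WT 3 above the other 4 livers, and the elongase Elovl6 read 9.56, 8.84, 10.78, 9.99 and 9.70. Scd1, the main desaturase, had 13.60 ± 0.21, and Srebf1 read 10.19, 9.56, 10.15, 9.24 and 9.19. A 2-fold range was found for 5 of the 20, beside 17.2% of all genes over log2 4. It was found for 3 without WT 3 or without WT 5.

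Fat oxidation and lipid droplet genes held a few members of wide range. Pdk4, which shuts pyruvate out of oxidation in fasting, read 9.55, 9.59, 8.45, 11.53 and 10.62, an 8.46-fold difference between WT 4 and WT 3. G0s2, an inhibitor of fat breakdown, read 8.87, 9.76, 8.85, 10.96 and 9.39, and Plin5, a lipid droplet protein, 11.21, 10.77, 10.22, 11.98 and 10.22. Ppargc1a, a coactivator of mitochondrial genes, ran another way, at 9.08, 7.96, 10.68, 10.04 and 8.56. Its second probe set ranged by 0.88, with the same lowest but another highest liver. Core oxidation enzymes stayed within a 2-fold range, with Acadl at 12.30 ± 0.05, Ehhadh at 11.73 ± 0.10 and Cpt1a, the entry step, between 10.63 and 11.27. In all 6 of 19 members had a 2-fold range, beside 17.2% of all genes over log2 4, and 3 did without WT 4.

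Gluconeogenic enzymes were bright and even, while the dimmer insulin signalling genes varied more. Of 18 members over log2 4, 4 (22.2%) had a 2-fold range, beside 17.2% of all genes over log2 4. That share was 1.47% for all genes with means above 12, and 27.8% from 6 to 8, where Irs1 and Irs2 lay. The part of level in the contrast was not tested. Pck1, the rate-limiting enzyme of gluconeogenesis, read 14.39, 14.30, 14.48, 14.40 and 14.30, and G6pc, which releases glucose, 13.31, 13.38, 13.05, 13.32 and 13.33. Irs1 and Irs2, which carry the insulin receptor's signal, read 6.38, 5.89, 7.27, 6.72 and 5.33, and 5.96, 5.71, 6.83, 6.47 and 5.50, each highest in WT 3 and lowest in WT 5. Insr itself read 8.72, 8.40, 9.37, 9.57 and 8.46, and Foxo1, which insulin keeps out of the nucleus, 8.43, 8.27, 8.74, 8.60 and 7.84. WT 3 was the highest liver for 11 of 18 members over log2 4, beside 26.1% of all genes.

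Glucocorticoid-responsive genes were all over log2 4, 15 of 15. Tsc22d3, a transcript that glucocorticoids induce, read 10.18, 9.12, 10.83, 9.10 and 9.67 and Fkbp5, a chaperone of the receptor, 9.05, 8.56, 8.44, 9.54 and 8.08, with different highest livers. Cdkn1a was the third member with a 2-fold range, and 3 of 15 is near the 17.2% of all genes over log2 4. The receptor Nr3c1 had 9.60 ± 0.14, and Hsd11b1, which regenerates the active hormone, 13.60 ± 0.04. Clock genes were over log2 4 in 17 of 21, and 10 of the 17 had a 2-fold range, beside 17.2% of all genes over log2 4, or 6 with a level of log2 6. Of the 17, 6 were higher in each of WT 3, 4 and 5 than in WT 1 and 2, the split of the poly-A controls, beside 13.2% of all genes. Per2, a clock repressor, read 4.26, 4.44, 6.18, 5.56 and 6.17, and Dbp, an output factor, 10.73, 10.46, 11.55, 12.05 and 10.84, and both are among these 6. Nr1d1 read 3.69, 4.26, 3.78, 3.42 and 6.08, high in WT 5 alone, while its relative Nr1d2 had 11.95 ± 0.14. Arntl, which is out of phase with Dbp in mouse liver, was at 3.08 ± 0.16. No source used here gives the clock time of each operation.

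Bile acid genes were over log2 4 in 19 of 19 and even, with a pair of exceptions. Cyp7a1, the rate-limiting enzyme of bile acid synthesis, read 10.10, 10.05, 11.42, 10.88 and 10.61, and Nr0b2 (SHP), a repressor of Cyp7a1, 9.87, 10.95, 8.71, 10.82 and 11.79. WT 3 was thus the highest liver for Cyp7a1 and the lowest for Nr0b2, but the other 4 livers did not run in opposite order. Without WT 3 there was 1 member with a 2-fold range, Nr0b2. The uptake carrier Slc10a1 had 13.27 ± 0.11 and the export pump Abcb11 11.40 ± 0.09.

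Drug metabolism and nitrogen metabolism lists were bright and of small spread, as the plasma proteins were. Their median levels were 13.70 and 13.57 and their median ranges 0.24 and 0.35. All genes with means above 12 had a median range of 0.26, and 1.47% of them had a 2-fold range. The part of level in this small spread was not tested. Of 22 xenobiotic genes over log2 4 only Cyp2b10, a target of the receptor CAR, had a 2-fold range, at 11.79, 11.06, 12.37, 11.42 and 12.03, and none did without WT 2 or without WT 3. Cyp2e1 had 14.68 ± 0.05, Cyp3a11 14.16 ± 0.10 and Cyp1a2 13.38 ± 0.12. In the urea cycle and amino acid list Cps1, the first enzyme of the cycle, had 13.60 ± 0.07, Arg1, the last, 14.25 ± 0.08, and the tryptophan enzyme Tdo2 14.34 ± 0.06. The 1 of 22 with a 2-fold range was Ass1, whose only single-gene probe set read 4.94, 4.43, 4.14, 3.59 and 3.56, near background and far under what hepatocytes are known to express. It is not read here as the level of the gene.

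Heat shock genes were higher in WT 3, 4 and 5 for 10 of 16 members, beside 13.2% of all genes over log2 4, and lower for 0. Hspa1b, an inducible Hsp70 that shares sequence with Hspa1a, read 8.96, 8.19, 10.98, 9.24 and 10.04, Dnajb1, its co-chaperone, 7.66, 7.78, 9.01, 8.36 and 8.47, and Hsph1 8.48, 8.12, 9.14, 9.63 and 9.50. The constitutive Hspa8 had 13.45 ± 0.16. The poly-A controls had the same split of livers. A heat shock element was searched on both strands as GAA, any 2 bases, TTC, any 2 bases and GAA. It was found in the promoter of 4 of 13 members (30.8%), beside 0.662% of 27025 genes. In other lists, the sterol regulatory element was found in 1 of 16 cholesterol synthesis genes (6.25%), beside 1.57% of genes over log2 4. The cyclic AMP response element was found in 2 of 23 immediate early genes (8.7%), beside 3.69%. The E-box was found in 4 of 14 clock genes (28.6%), beside 12.4%. In the list of endoplasmic reticulum and integrated stress genes, 8 of 23 had a 2-fold range, beside 17.2% of all genes over log2 4. There were 5 without WT 1 or WT 4 and 4 without WT 5, and WT 5 had the highest mean deviation, 0.17. Hyou1, an endoplasmic reticulum chaperone, read 5.73, 5.53, 5.30, 5.30 and 6.58 and Sdf2l1 7.57, 7.20, 7.08, 7.91 and 8.78, while Hspa5 (BiP) had 13.82 ± 0.08. Atf4, the central factor of the integrated response, read 9.14, 9.97, 9.96, 10.24 and 10.06, and its target Trib3 7.15, 6.34, 6.26, 6.09 and 6.17. So WT 1 was the lowest liver for Atf4 and the highest for Trib3.

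In the list of NRF2 targets, which also holds the gene for NRF2, WT 5 was highest in 4 of 11, beside 21.3% of all genes over log2 4. WT 1 was highest in 3, beside 19% of all genes. The mean deviation of the list in WT 5 was 0.29. Osgin1 read 7.24, 8.74, 7.48, 9.18 and 9.40, Hmox1, which degrades haem, 8.18, 8.02, 8.72, 8.91 and 9.55, and Srxn1 9.47, 9.80, 9.52, 8.71 and 10.45. Nfe2l2, which encodes NRF2, read 8.82, 9.45, 9.64, 9.62 and 10.10. Gclc, a glutathione synthesis gene, was lowest in WT 5, at 12.80, 12.80, 12.56, 12.55 and 12.14. A 2-fold range was found for 5 of the 11, beside 17.2% of all genes over log2 4. It was found for 3 without WT 4 or without WT 5.

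**Figure D5:**
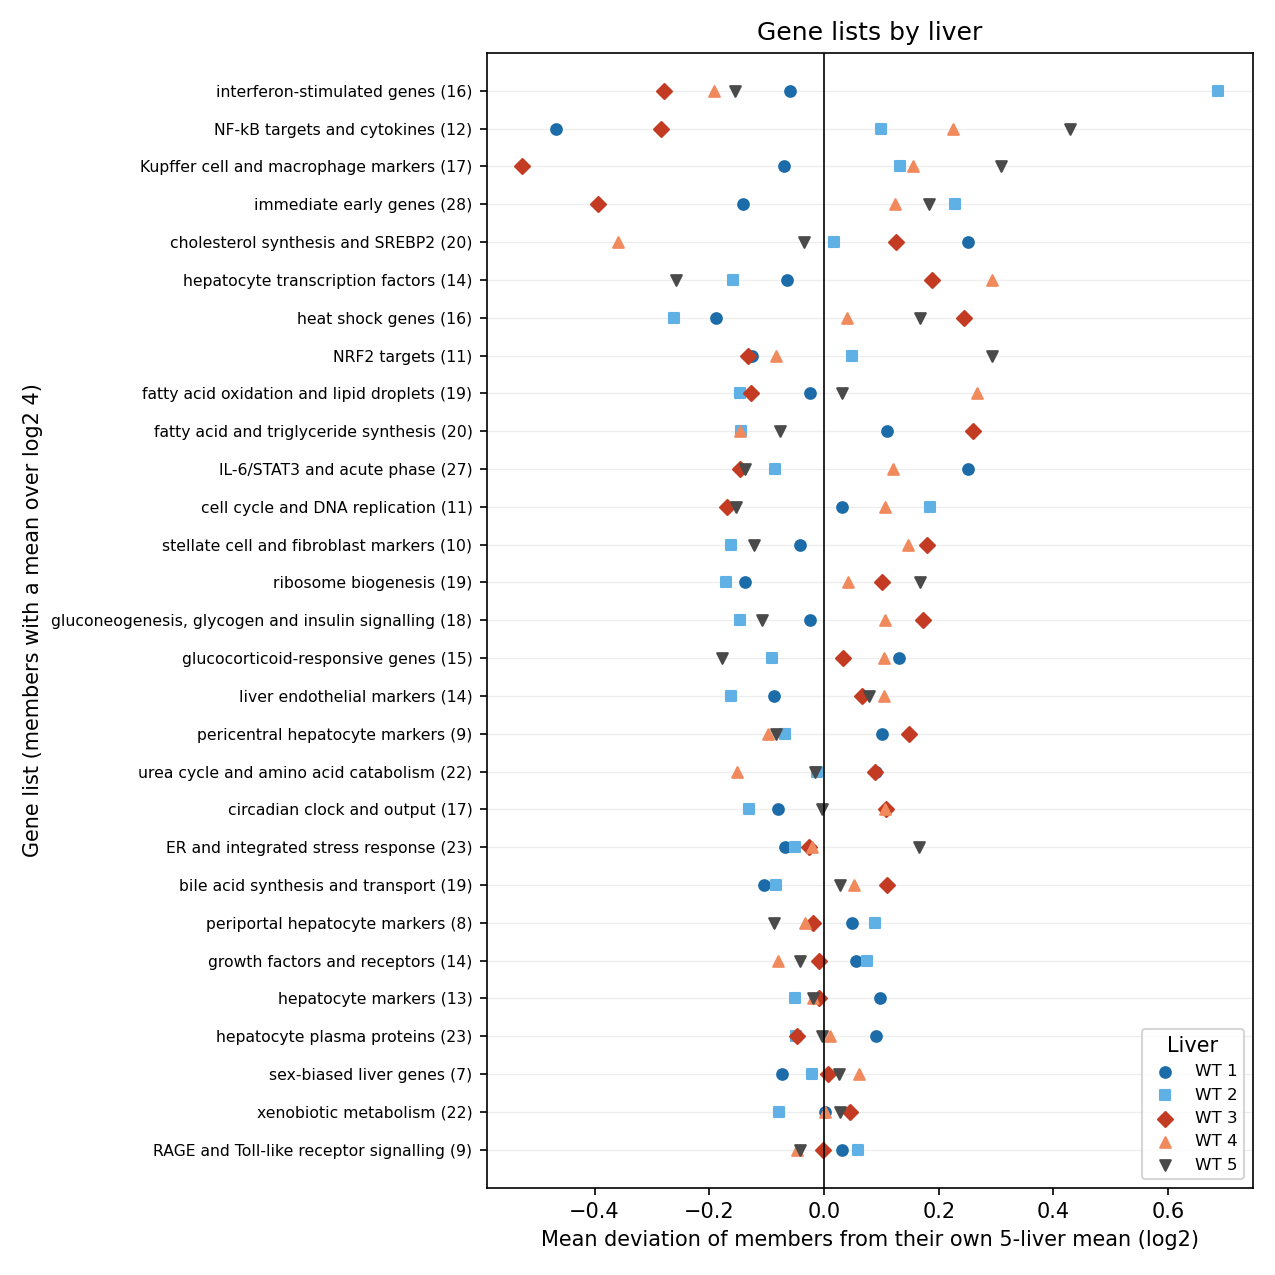
Mean deviation of list members over log2 4 from their own 5-liver mean (log2), by liver, for lists with at least 5 such members, ordered by spread. Interferon-stimulated genes stand high in WT 2 at 0.69, Kupffer cell markers low in WT 3 at −0.53 and cholesterol genes low in WT 4 at −0.36, while drug metabolism, plasma protein and hepatocyte marker lists stay near 0.

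The 30 largest ranges fell on genes of many kinds. WT 5 was the highest liver for 12 of them and WT 3 the lowest for 9. Malat1, a nuclear long non-coding RNA, read 8.87, 7.49, 9.70, 8.67 and 5.18, the largest range of all at 4.52, and its second probe set had the same highest and lowest livers with a range of 3.80. Rsrp1, linked to RNA splicing, read 9.89, 8.95, 12.28, 10.21 and 11.77, and its second probe set ranged by 6.44 with the same extremes. Ddit4, a stress-induced inhibitor of mTORC1, read 9.93, 8.52, 11.62, 10.92 and 8.80, and Nrg4, a growth factor, 6.32, 4.67, 8.17, 7.64 and 5.83. For Nrg4 the second probe set had the same extremes and a range of 3.15. These 4 genes had WT 3 as their highest liver, as did Zfp809 (8.48) and Med20 (6.88).

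Other large ranges were set by WT 5 alone. Tkfc, which phosphorylates fructose breakdown products, read 7.13, 7.71, 7.97, 7.30 and 10.72, and without WT 5 its range was 0.84. Without WT 5 the ranges of Gprin3, Marco, Ap3s2 and Efna1 likewise came to 0.53, 0.88, 0.75 and 0.97. Efna1, an ephrin, read 10.64, 10.07, 11.05, 11.03 and 8.09, and its second probe set had the same extremes with a range of 4.15. Mocs1 (9.10 in WT 5), Plekhj1 (7.29), Spr (10.56), Asgr2 (11.80), a subunit of the asialoglycoprotein receptor, Akap12 (8.45), Rnf186 (6.93) and Vapb (8.61) were highest in WT 5 and kept ranges over 1 without it. Rgs16 (4.87) and Scara5 (5.69) were lowest there.

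The remaining genes of the 30 had other orders. Cish, a feedback inhibitor of cytokine and growth hormone receptors, read 3.95, 5.18, 5.09, 6.97 and 5.65, highest in WT 4. Hilpda, a lipid droplet protein induced by low oxygen, read 6.84, 8.84, 5.76, 7.79 and 7.06, with the highest and lowest livers of Atf3. Mpst read 8.59, 8.34, 6.37, 5.70 and 6.64, higher in WT 1 and 2 than in the rest, and Fam98b 7.13, 6.75, 6.51, 4.16 and 6.00. At the other end, the 10 smallest SDs among genes with means over log2 8 were 0.016 to 0.025, for Pgrmc1, Psmd12, Ccndbp1, Hadh, Rab1a, Cfhr2, Pgk1, Cct5, Rbbp7 and Creb3.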

How the data were processed

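The authors deposited log2 values of Affymetrix mouse genome arrays, which, per the submitters' processing notes, came from GCRMA 2.16, and no detection call was used here. Of 45101 probe sets, 64 are array controls, and GEO's platform annotation, which can be old, gave 34945 a single gene symbol, 932 several and 9160 none. Of several single-gene probe sets, the one with the highest mean over the 5 WT livers was read, which gave 18193 genes. A mean over log2 4 was taken as over background. The mean, SD and range over the 5 livers were computed for each gene, with Python 3.11.15, pandas 2.3.3, numpy 2.4.6, scipy 1.17.1 and matplotlib 3.10.9, and the procedure was tested on simulated data. No pair of arrays was a repeat, the smallest root mean square difference being 0.342. The text names the 20 highest means, the 30 largest ranges and the 10 smallest SDs among genes with means over log2 8, key genes chosen by role, and members of the lists. The members, lists and motifs were chosen with earlier results of these data known. Probe sets with an _s_ or _x_ in their name, which read 1062 of the genes over log2 4, can bind related transcripts. Alternatives changed the level threshold, the choice of probe set, the scaling, the measure of spread and the livers used. The other 14 arrays served only to choose probe sets in 1 alternative. Some key genes were not analysed here. The gap between WT 3 to 5 and WT 1 to 2 was looked at after the control probe sets had been seen.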

Additional observations from a re-analysis of the deposited data

Results flagged for a closer look

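In groups of 5, chance puts about 1 in 20 genes past the limit used here, at which the gap between the extreme liver and its nearest neighbour exceeds 0.71 of the range. Of 306 items tested, 28 (9.15%) passed, and of all genes over log2 4, 469 (5.83%). Many items were named for large ranges in these same values, so no meaning is read into their higher share. Livers that stood high were WT 5 for Ap3s2 (7.27), Egfl7 (8.98), Jun (11.23), Marco (7.26), Rrn3 (6.42) and Tkfc (10.72), WT 4 for Herpud1 (13.25) and Nr1d2 (12.19), WT 3 for Fasn (10.89), Fgfr4 (7.24) and Foxa2 (6.46), and WT 1 for Fgg (14.71), Lcn2 (7.55) and Trib3 (7.15). Livers that stood low were WT 5 for Apob (11.92), Gprin3 (4.54), Ppara (8.31) and Rrm2 (6.30), WT 4 for Hal (11.25) and Mvd (5.30), WT 3 for Cct5 (12.01), Clec4f (9.65) and G6pc (13.05), and WT 1 for Atf4 (9.14) and Lum (4.37). Among mean deviations of lists, WT 2 stood high for interferon-stimulated genes (0.69), WT 5 for endoplasmic reticulum and integrated stress genes (0.17) and WT 1 for hepatocyte markers (0.10). The sizes differ widely: Cct5, with an SD under 0.03 on the log2 scale, passed as Marco did.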

How the results depend on the processing

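The count of 8044 genes over log2 4 ran from 8009 to 8068 with each liver left out, and the median SD from 0.212 to 0.230. The count of 1385 genes with a 2-fold range ran from 949 to 1169 with a liver left out, which cannot widen the range of a gene. It was 815 at a level of log2 6, where fewer genes were counted, 768 with the mean of all single-gene probe sets (697 of them among the 1385), and 731 with an SD of at least 0.5 as the measure. It was 130 between the pair with S numbers 1 and 2, 266 between the pair with 7 and 8, and 772 over the 3 arrays with 7, 8 and 18, an alternative chosen after the data were seen; these use fewer arrays. Centring each array (1417), quantile normalization (1335), setting values under log2 4 to 4 (1300), no filter on level (1608) and probe sets chosen over all 19 arrays (1390) moved it by less than 1.5 times. The mean of all probe sets moved the median level by −0.32 and the mean level of 128 of 283 named genes by more than their SD, so levels depend on the probe set read. Under it, 2 cholesterol synthesis genes and 0 cell cycle genes had a 2-fold range. No paired analysis was possible because a single group is described. With no detection call, levels near log2 4 are the least certain.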
